A study of Homo sapiens with 4 samples.

Results

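DEAD and DEAH box proteins are RNA helicases that use ATP to open RNA duplexes or to strip proteins from RNA, and they are named DDX and DHX for the amino acids of one of their conserved motifs. Members of the family drive the rearrangements of the spliceosome, the assembly of ribosomal subunits in the nucleolus, the export, translation and decay of mRNA, and the sensing of viral RNA. NSUN2 is a methyltransferase that writes 5-methylcytosine (m5C) on tRNA and on a set of mRNAs, and a peak on a helicase gene describes RNA of that gene recovered with NSUN2, not the helicase protein.

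The genes described were all protein-coding genes of the peak lists whose symbol began with DDX or DHX followed by a number. There were 48 of them, 33 DDX and 15 DHX, among 12692 protein-coding genes with a peak. They were measured by RIP-seq, in which RNA pulled down with an anti-NSUN2 antibody (the IP) is sequenced beside RNA of the lysate taken before the pull-down (the input). The cells were wild-type PANC-1, an established line from a human pancreatic ductal adenocarcinoma, treated for 24 h with 30 mM sodium lactate or with ddH2O as vehicle. Each condition had 1 IP library and 1 input library, 4 libraries in all. The comparison of the conditions therefore has no replicate check, and its values compare 2 IP libraries. The binding and the amount of a transcript cannot be told apart in the ratio of the IP libraries, since the inputs enter only the folds of the peak lists.

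Over the windows of all merged peaks, which may overlap, the lactate IP held 9756054 reads and the ddH2O IP 9553835. Leaving out the windows of 2 very abundant RNAs, MT-RNR2 and MALAT1, they held 1945000 and 3536821, so that the ddH2O IP held 1.82 times as many over the remaining windows. These are sums over windows of merged peaks and not the sequencing depth of the IP libraries. The depth of the inputs is unknown. As a check of the cell type, all 5 markers of ductal epithelium looked at (KRT7, KRT8, KRT18, KRT19 and EPCAM) had a peak in at least 1 list. Their densest windows held, in the lactate and ddH2O IP, 2737 and 8085 reads for KRT18, 1592 and 4024 for KRT8, 92 and 248 for KRT19, 16 and 37 for KRT7, and 1 and 3 for EPCAM, which had no lactate peak. Of 4 markers of other cells, PECAM1 had no peak, PTPRC (leukocytes) had 0 and 3 reads in its window, COL1A1 (fibroblasts) had 47 and 50, and CD68 (macrophages) had 30 and 62. KRT8 and KRT18 were thus far above the markers of other cells, while KRT7 lay below COL1A1 and CD68, and EPCAM was near PTPRC. The part of other cells in the values below was not tested.

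A peak was listed with lactate for 41 of the 48 helicase genes and with ddH2O for 47. Both lists held 40 of them (83.3%), against 72.7% of all protein-coding genes with a peak. DDX28, a mitochondrial ribosome assembly factor, had a peak only in the lactate list. The 7 genes with a peak only in the ddH2O list were DDX3X, DDX19B, DDX20, DDX43, DDX60L, DHX16 and DHX38. RefSeq lists 54 protein-coding DDX and DHX symbols, and 7 of these had no entry in either list, among them DDX5, DDX4 and DHX58, while DDX58, the RNA sensor RIG-I, is listed there as RIGI. Of all RefSeq protein-coding symbols, 61.0% had a peak.

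The helicase genes carried 142 lactate peaks and 313 ddH2O peaks, 2.2 times as many, where all protein-coding genes gave a ratio of 1.92. More ddH2O than lactate peaks were listed for 40 genes, fewer for 5 and the same number for 3. The 5 genes with more lactate peaks were DDX11, DDX28, DDX39A, DHX33 and DHX35, each ahead by 1 peak. DDX10, a nucleolar helicase, carried the most peaks of the family, with 15 and 38, followed in the ddH2O list by DDX58 with 6 and 18, DDX46 with 11 and 17, DHX32 with 7 and 13, and DDX42 and DHX29 with 12 ddH2O peaks each. The median per gene with a peak was 2 with lactate and 5 with ddH2O (2 and 3 for all protein-coding genes).

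**Figure D1:**
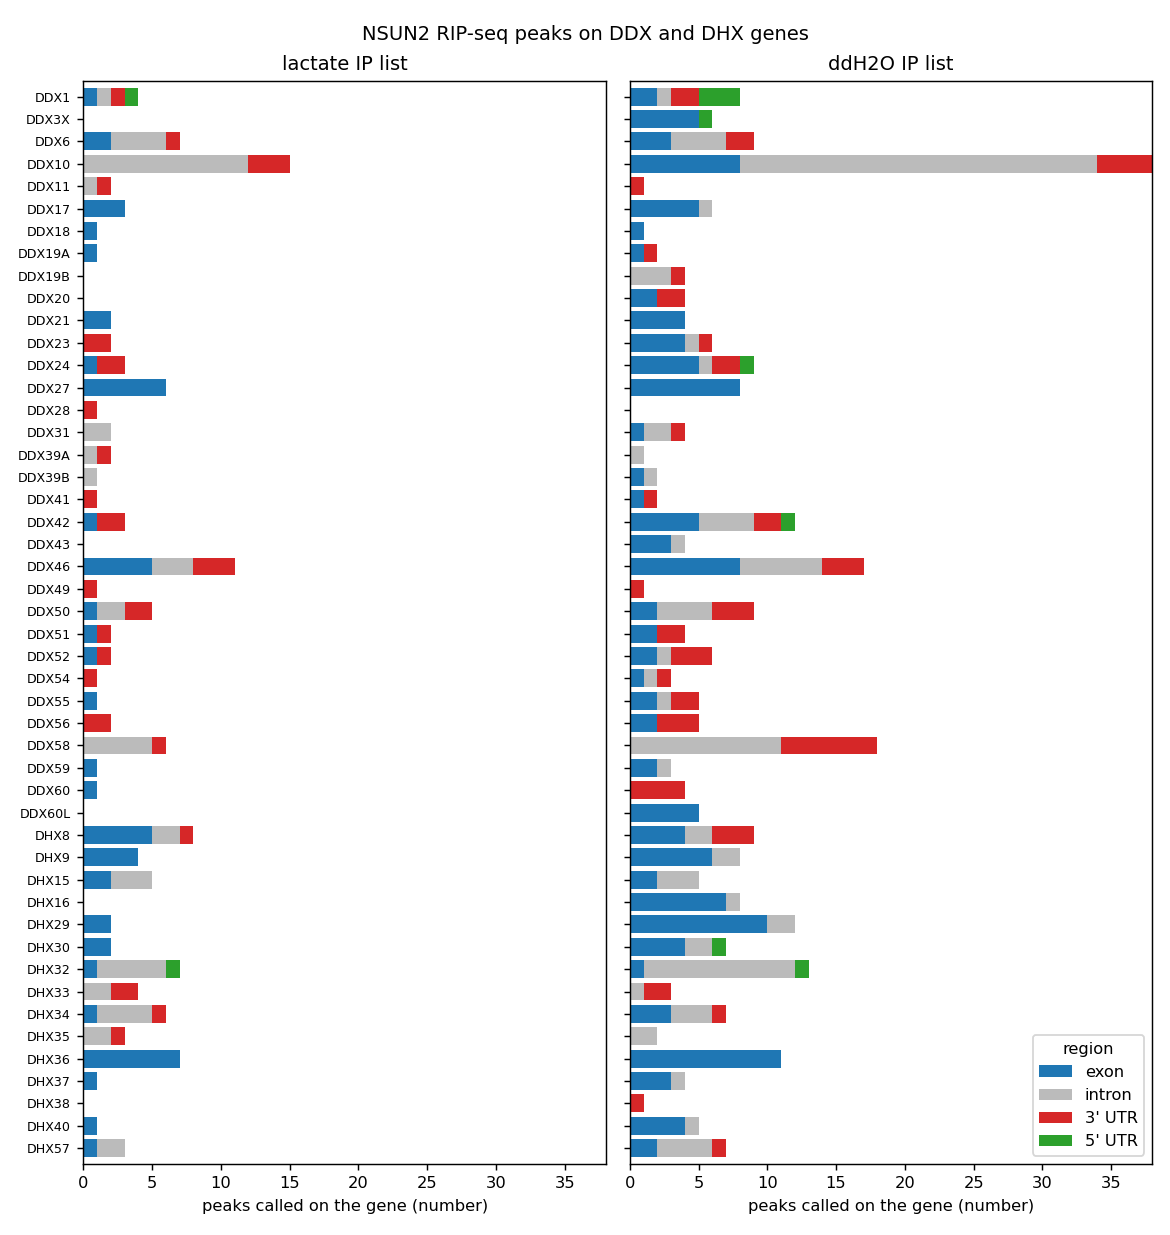
Number of NSUN2 RIP-seq peaks on each of the 48 helicase genes (bars, axis from 0) in the lactate list (left) and the ddH2O list (right), with colours for the labelled transcript region. DDX10 stands out with 15 and 38 peaks, and 7 genes have bars on the right side only.

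The peaks lay on exons more often than those of protein-coding genes as a whole. In the lactate list 56 of 142 (39.4%, exact 95% binomial interval 31.3 to 48.0%) were labelled exon, against 18.8% of all protein-coding peaks, and in the ddH2O list 142 of 313 (45.4%, 39.8 to 51.1%), against 21.0%. Intron peaks made up 36.6% (28.7 to 45.1%) and 33.9% (28.6 to 39.4%), against 61.5% and 61.2%. The intervals cover counting error only, and peaks of 1 gene share their transcript. The 3′ UTR held 32 lactate peaks (22.5%) and 57 ddH2O peaks (18.2%). These shares were near those of all protein-coding peaks (18.1% and 15.8%), which lay within their intervals (16.0 to 30.3% and 14.1 to 22.9%). The 5′ UTR held 2 and 8.

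Within the family, DDX genes carried a larger share of peaks labelled 3′ UTR than DHX genes. The 3′ UTR held 49 of 211 ddH2O peaks of DDX genes (23.2%, 17.7 to 29.5%) and 8 of 102 of DHX genes (7.84%, 3.45 to 14.9%). In the lactate list these shares were 30.3% (21.0 to 41.0%) and 9.43% (3.13 to 20.7%), with intervals that did not overlap in either list. All protein-coding peaks had 15.8% with ddH2O and 18.1% with lactate. The intervals treat peaks of 1 gene as separate, although they share a transcript. The label is not a position, and those of DDX10 labelled 3′ UTR lay between 0.20 and 0.64 of the gene length. Whether the shares differ by position was not tested. The exon shares of DDX and DHX genes were 40.3% (33.6 to 47.2%) and 55.9% (45.7 to 65.7%) with ddH2O and 32.6% (23.0 to 43.3%) and 50.9% (36.8 to 64.9%) with lactate, and these intervals overlapped. DHX36, which unwinds G-quadruplexes, carried 7 and 11 peaks, all labelled exon, as did DDX27 with 6 and 8. DDX58 was the other extreme, with 0 exon peaks, 5 and 11 in introns and 1 and 7 in the 3′ UTR. No gene had intron peaks alone, and 15 had none.

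Nearly all of the 455 peaks (98.7%) lay on the RefSeq span of their gene, and 61 peaks of 14 genes also lay over another RefSeq gene. These include 12 DHX29 peaks over CCNO-DT, 16 DDX10 peaks over an uncharacterised locus, and 7 and 2 DDX58 peaks over a pair of such loci. No statement of strand was used, so reads of such pairs cannot be told apart. The 5 DDX46 peaks over C5orf24 are another case, since they lie past the 3′ end of DDX46 and on C5orf24 alone. Without them DDX46 had 9 lactate and 14 ddH2O peaks. Labels and positions did not always meet. Of the peaks labelled 3′ UTR, 16 of 32 lactate peaks (50%) and 23 of 57 ddH2O peaks (40.4%) had their centre past 0.9 of the length of the gene, and others lay near its middle or start.

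**Figure D2:**
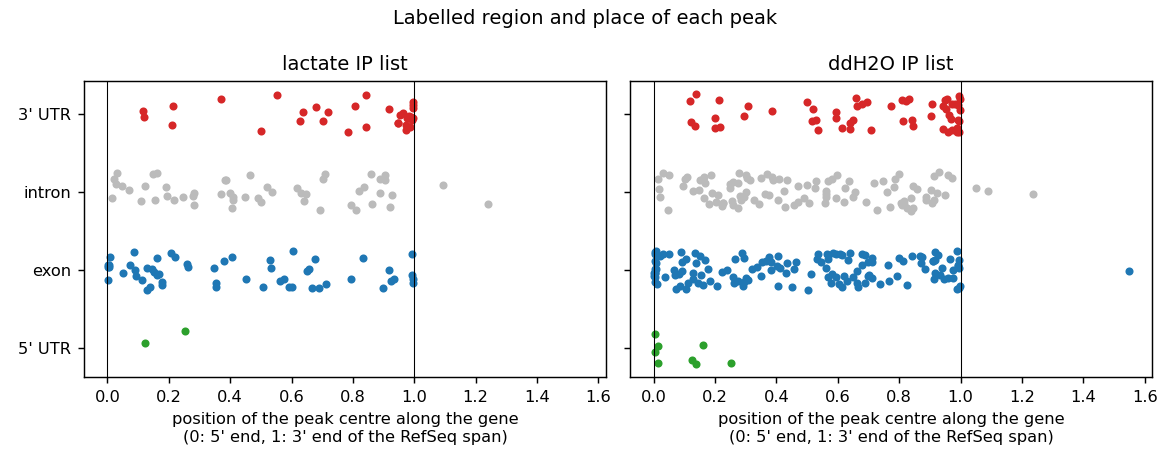
Centre of each helicase peak along its gene (0 is the 5′ end and 1 the 3′ end of the RefSeq span, values past 1 lie downstream), by labelled region, for the lactate list (left) and the ddH2O list (right). Peaks labelled 3′ UTR gather near 1 but reach back to 0.12, and 6 peaks lie past the 3′ end.

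At the 5′ end, 11 members had a ddH2O peak over the first 50 transcribed bases, and 6 of them (DDX27, DDX50, DHX8, DHX15, DHX32 and DHX40) also had a lactate peak there. The opening bases of 6 of the 11 are shown, with the opening run of pyrimidines (C or T) in capitals. All 11 starts lie under or next to a peak, so this did not set the choice. DDX21, DDX50 and DHX15 are the only ones of the 11 that open with a pyrimidine. Those left out (DDX1, DDX10, DHX8, DHX16 and DHX32) open without one. The ddH2O peaks cover all of the bases shown except in DHX15, where the start itself lies outside the peak. Of the lactate peaks, that of DHX15 covers none of the bases shown and that of DDX27 only the end of them. Each is read from RefSeq (GRCh38.p14) in the direction of transcription.
DDX21 (chr10:68956170-68956199, plus strand): CTCTTCCTCTCCacgcggttgagaagaccg
DDX50 (chr10:68901315-68901344, plus strand): CCTTTCacgctgtcgctgcccgtaggtggt
DHX15 (chr4:24584525-24584554, minus strand): CTCgtcgccgccgccattttagctgttggt
DDX24 (chr14:94081173-94081202, minus strand): agttgctgctgcagctgaggtacagcggcg
DHX40 (chr17:59565610-59565639, plus strand): gtctttcccctcccatctcctcagatcggt
DDX27 (chr20:49219416-49219445, plus strand): gtgctcgcttccggaagtggcttctgcgac

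The ddH2O peaks at the 6 starts shown had folds over input of 6.13 for DDX21, 5.14 for DDX50, 5.62 for DHX15, 13.0 for DDX24, 11.0 for DHX40 and 3.28 for DDX27, all with a q-value below 0.05. Of the starts not shown, the ddH2O peak of DDX10 had a fold of 2.28 (q = 0.968), and the other ddH2O peaks had a q-value below 0.05. The lactate peaks of DHX8 and DHX32, not shown, had folds of 3.24 and 2.85, with q-values not below 0.05. Where the lactate list had a peak at a start shown, its fold was 3.58 (DDX50), 6.34 (DHX15), 4.42 (DHX40) and 2.57 (DDX27). DDX21 and DDX50, neighbouring paralogs that both work in the nucleolus, were the only members of the 11 to open with C in a run of at least 5 pyrimidines. Such a run opened 3 of the 56 starts of all members (5.4%), near the 4.10% of 35116 RefSeq starts. CNGGG, a sequence context known for m5C sites of NSUN2, was searched in the first 50 bases on the transcribed strand. It was found in 1 of the 11 (DDX21), in 28.6% of 56 starts of 44 members and in 34.1% of all starts, while the other strand held it in 28.6% and 30.9%. The matches overlap no other motif searched.

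The folds of the peaks over their own input had a median of 3.63 for lactate and 3.18 for ddH2O, where all protein-coding peaks had 3.24 and 3.03. A q-value below 0.05 was listed for 80 of 142 lactate peaks (56.3%, 47.8 to 64.6%) and for 175 of 313 ddH2O peaks (55.9%, 50.2 to 61.5%). For all protein-coding peaks the shares were 44.6% and 50.9%.

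The 3 highest folds of the lactate list were on exons of DDX17, DDX27 and DDX46. DDX17, a splicing and transcription cofactor, had a fold of 26.0 (q = 5.52e-54) at chr22:38494470-38495012, and the ddH2O peak over the same exon had 18.5 (q = 5.43e-87). DDX27, which acts in rRNA maturation, had 19.4 (q = 5.39e-58) at chr20:49236205-49236690, where the ddH2O peak had 8.82. The window of this peak held 17 lactate and 77 ddH2O reads, a log2 ratio of -1.61 (-2.52 to -0.90) by MAnorm and -1.25 by library sums (both described below). Its IP read ratio was thus lower with lactate while its fold over input was higher. Some windows miss reads that the peak caller had, and whether this one does was not tested. DDX46, a U2 snRNP helicase, had 12.4 (q = 3.18e-37) at chr5:134777385-134777772. In the ddH2O list DDX27 held the highest fold, 43.5 at chr20:49222773-49223587, and the lactate peak there had 10.7. The ddH2O peak of DDX17 came next, before DDX10 with 16.0 (q = 4.60e-31) at chr11:108851975-108852393. The lists were called separately against separate inputs, so their folds stand side by side without a test.

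Peaks of both lists that overlapped by at least 1 base were shared by 101 of 142 lactate peaks (71.1%, 62.9 to 78.4%) and by 102 of 313 ddH2O peaks (32.6%, 27.4 to 38.1%). For all protein-coding genes the shares were 58.5% and 29.9%. After merging, the helicase genes held 354 merged peaks of 116484, of which 102 came from both lists, 41 from the lactate list and 211 from the ddH2O list.

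For each merged peak the number of reads in a window of 2000 bases was recovered for both IP libraries, so that windows of different genes are of equal length. The helicase windows held 7787 lactate and 17080 ddH2O reads in sum, 2.19 times as many in ddH2O. The median window held 6 and 10 reads, and 207 of the 354 had under 20 reads over both libraries. Ratios are given for the other 147 windows, in 39 genes. They are log2 ratios of the normalized density of the lactate IP over that of the ddH2O IP, as scaled by the authors with MAnorm, with an exact 95% interval of the read counts where one is printed. Windows that overlap share reads, as 64 of the 147 did with the window before them in the same gene.

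The helicase windows were on balance lower in the lactate IP. Their median log2 ratio was -0.46, against -0.20 over all 37925 merged peaks with at least 20 reads, and 111 of 147 lay below 0 (87 by the library sums described next). A ratio over 2-fold was reached by 6 windows upwards (4.08%) and 34 downwards (23.1%), where 7.65% and 18.6% of all merged peaks did so. The downward share was thus near the background. By gene, 4 of 39 had a window over 2-fold higher and 18 one over 2-fold lower, where 16.0% and 36.8% of all protein-coding genes did. A gene with more windows has more occasions to hold one past 2-fold. The helicase genes had a median of 5 ddH2O peaks against 3, so the shares of genes are not like for like. DDX6 had windows in both directions.

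The scaling moved these counts. An alternative was to divide the reads by each library's sum over the merged-peak windows without the 2 abundant RNAs, which adds 0.86 to every log2 ratio of reads. By these library sums the median was -0.24, against 0.13 over all merged peaks, with 11 windows higher and 15 lower. All merged peaks then gave 17.0% and 8.77%. Higher windows made up 15.0% of those over 2-fold by MAnorm and 42.3% by library sums, against 29.2% and 66.0% of all merged peaks. Under both scalings the helicase median lay below that of all merged peaks. DDX genes had a median of -0.62 and DHX genes -0.31 by MAnorm, and -0.33 and 0.10 by library sums. A minimum of 100 reads, where counting error is smallest, was chosen after seeing the data. In the 56 windows that reached it, the medians were -0.46 by MAnorm and -0.43 by library sums, against -0.10 and -0.07.

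**Figure D3:**
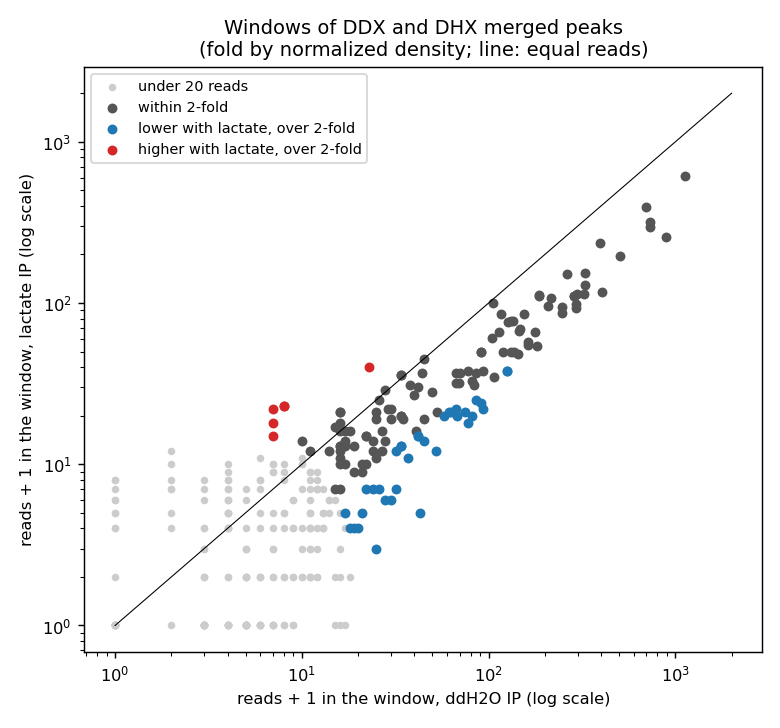
Reads plus 1 in each helicase window, ddH2O IP (x axis) against lactate IP (y axis), both on log scales. Grey points have under 20 reads, blue points are the 34 windows over 2-fold lower and red points the 6 over 2-fold higher by normalized density, and the line marks equal reads. Most points lie under the line, and the highest window is DDX21 with 616 and 1124 reads.

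The region of a window went with its ratio. Exon windows had a median of -0.62 (73 windows), intron windows -0.02 (37), 3′ UTR windows -0.34 (33) and 5′ UTR windows -1.04 (4), and by library sums these medians were -0.44, 0.47, -0.25 and -0.75. Of the exon windows 1 was over 2-fold higher and 18 lower, where 2.12% and 22.6% of all protein-coding exon windows were. By library sums there were 2 and 8, against 6.85% and 11.6%. Intron windows counted 5 and 5 by MAnorm, against 13.0% and 17.3%, and 9 and 2 by library sums, against 27.3% and 7.67%, so that their balance moved with the scaling, as that of all intron windows did. In the 3′ UTR 9 windows were over 2-fold lower, against 15.5%, and by library sums 4, against 7.03%. In all protein-coding windows exons (-0.39) also lay below introns (-0.03). Exon windows also held more reads than intron windows, with medians of 102 and 31, and the part of depth in this order was not tested.

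**Figure D4:**
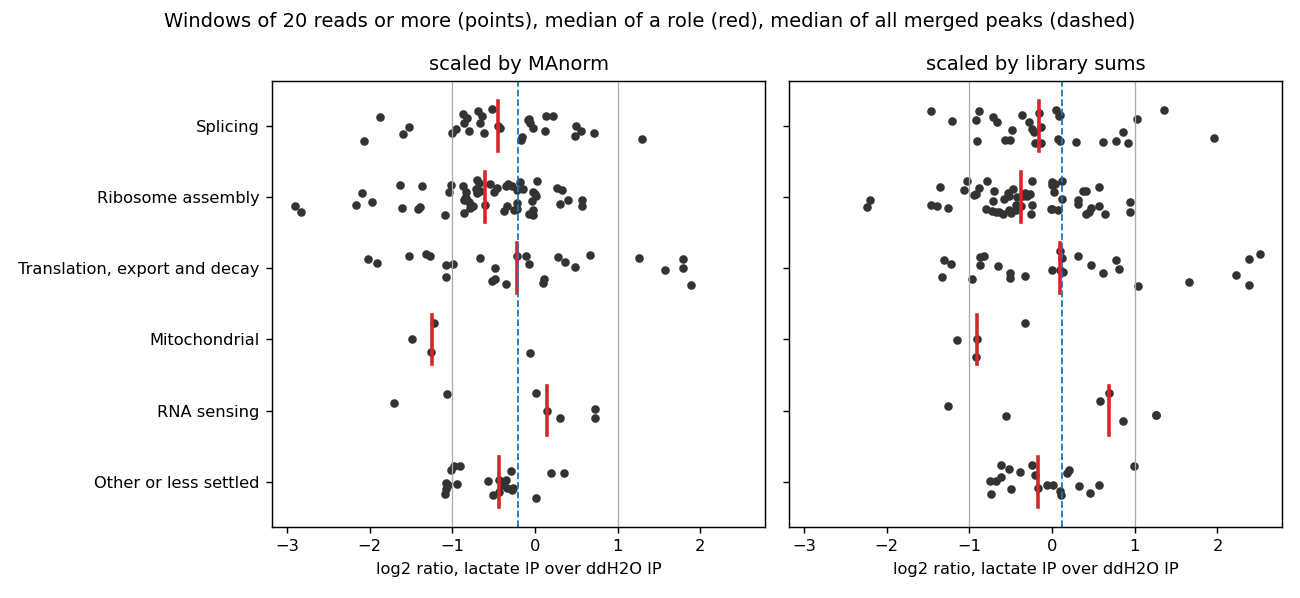
Log2 ratio of lactate IP over ddH2O IP for the 147 helicase windows with at least 20 reads (points), by role of the gene, scaled by MAnorm (left) and by library sums (right). Red bars are role medians, the dashed line is the median of all merged peaks and grey lines mark 2-fold. Ribosome assembly has a median of -0.61 on the left and -0.38 on the right, below the dashed line in both.

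Ribosome assembly was the largest role, with 15 genes and 57 windows in 14 of them. Its median was -0.61, with 0 windows over 2-fold higher and 13 lower (22.8%, near the 18.6% of all merged peaks). By library sums the median was -0.38, with 0 higher and 8 of 57 lower, against 17.0% and 8.77%. The densest window of all helicases belonged here, on DDX21, which joins rRNA transcription to processing. It held 616 lactate and 1124 ddH2O reads at chr10:68982508-68982823, a log2 ratio of 0.40 (0.25 to 0.54), which by library sums came to 0.00. Another DDX21 exon window held 255 and 893 reads, with a ratio of -0.68 (-0.89 to -0.48). By MAnorm these windows of 1 gene lay on different sides of 0 with intervals that did not overlap, and by library sums the second came to -0.94.

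DHX33, a nucleolar helicase of rRNA synthesis, had 393 and 697 reads in a 3′ UTR window (0.33, 0.14 to 0.51, and 0.04 by library sums). DDX24 had 296 and 732 reads in an exon window, with a ratio of -0.18 (-0.38 to 0.01), or -0.44 (-0.64 to -0.25) by library sums. DDX27 had 196 and 505 reads at the exon of its highest fold (-0.33, -0.58 to -0.10). None of these passed 2-fold, and they are, with DDX21 and DHX30, the 5 genes with most reads in a window.

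The lowest ratios of the family were on DDX56, which acts in the maturation of the large ribosomal subunit. A 3′ UTR window held 2 lactate and 24 ddH2O reads (-2.91, -6.56 to -1.42, chr7:44568751-44569102) and its neighbour 4 and 42 (-2.82, -5.05 to -1.65). These were the 2 of 34 lower windows whose interval lay below -1 as a whole. Their windows overlap, so they share reads, and the other tested windows of DDX56 had 49 and 136 reads (-0.75) and 56 and 161 reads (-0.77). DDX10 followed with 3 and 19 reads in an intron window (-2.16), and DDX51 with 3 and 18 in a 3′ UTR window (-2.09). All 5 ratios lowest in the family stayed over 2-fold lower by library sums.

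In the splicing role, 12 genes had 31 tested windows in 10 of them, with a median of -0.44 and 1 window over 2-fold higher and 4 lower (3.23% and 12.9%, against 7.65% and 18.6% of all merged peaks). By library sums the median was -0.16 with 3 higher and 2 lower (9.68% and 6.45%, against 17.0% and 8.77%). These shares lay under those of all merged peaks but rest on at most 4 windows each, so no difference is read from them. Of all protein-coding exon windows, 2.12% were higher and 22.6% lower by MAnorm. DDX46 held 112 and 324 reads in its densest exon window (-0.62, -0.95 to -0.31), and of its 9 tested windows 2 were over 2-fold lower and 0 higher. On the span of DDX46 itself 7 windows were tested and 1 was lower, and the other lower window lies on C5orf24. DDX39B, the UAP56 helicase of splicing and mRNA export, had 128 and 326 reads in an exon window (-0.42, -0.73 to -0.13) and 44 and 44 in an intron window (0.55, -0.08 to 1.19, and 0.86 by library sums, with an interval above 0). DDX17 had 76 and 134 reads at its high-fold exon (-0.06, -0.49 to 0.35), and its 5 tested windows lay between -0.96 and -0.02.

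DHX15, which releases the lariat intron after splicing, had 11 and 23 reads in its 1 tested window (-0.68, -1.93 to 0.35). DHX16, a spliceosome-activating helicase with no lactate peak, had 5 and 29 reads in an exon window (-2.06, -4.00 to -0.89) and 60 and 103 in its densest window (-0.08, -0.57 to 0.39). DHX8, which releases mRNA from the spliceosome, was the splicing gene with a higher window, 14 and 6 reads in an intron (1.29, -0.05 to 3.08). By MAnorm that interval included 0, the only one among the 6 higher windows to do so, and by library sums the ratio was 1.96 (0.62 to 3.75).

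Genes of translation, export and decay held 5 of the 6 higher windows and 7 of the lower ones among 27 windows (18.5% and 25.9%, against 7.65% and 18.6% of all merged peaks), with a median of -0.22. The 7 lower windows include 5 of DHX29, some of which may share reads. The 5 higher windows include the DHX34 pair described below, which is 1 measurement. All of these higher windows but that of DHX36 lay in introns, where 13.0% of all protein-coding windows were higher by MAnorm. By library sums 6 were higher and 3 lower (22.2% and 11.1%, against 17.0% and 8.77%), with a median of 0.10. The balance turned with the scaling, as it did for all merged peaks. DDX6, a decapping activator and translational repressor, had 21 and 6 reads in an intron window at chr11:118769894-118770387 (1.89, 0.69 to 3.65) and 17 and 6 in another intron (1.58, 0.31 to 3.35). Its densest window, in the 3′ UTR, had 84 and 153 reads (-0.08, -0.49 to 0.31), and a neighbouring 3′ UTR window had 20 and 74 (-1.31). The intron windows of DDX6 thus lay above 0, and those of its 3′ UTR below 0 by MAnorm and at 0.01 and -0.97 by library sums.

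DHX34, a factor of nonsense-mediated decay, had 22 and 7 reads in each of a pair of overlapping intron windows (1.79, 0.64 to 3.38). Both windows hold the same counts and count as 1 measurement. DHX36 had 39 and 22 reads in an exon window at chr3:154300873-154301307 (1.26, 0.49 to 2.11), the only exon window over 2-fold higher by MAnorm, while its densest window had 113 and 295 (-0.48, -0.81 to -0.17). All 6 higher windows stayed over 2-fold by library sums. By MAnorm the interval of none lay above 1 as a whole, and by library sums those of the DDX6 window with 21 and 6 reads (1.31 to 4.27) and of the DHX34 pair (1.24 to 3.99) did.

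DHX29, which helps ribosomes scan structured 5′ UTRs, had 7 tested windows. Of these 5 were over 2-fold lower by MAnorm and 2 by library sums, where 22.6% and 11.6% of all protein-coding exon windows were. Several DHX29 exon peaks lie closer together than the length of a window, so windows of neighbouring peaks overlap and share reads. The 5 lower windows may therefore not be separate measurements. The window with the lowest ratio held 6 and 31 reads (-1.91, -3.64 to -0.80), and the densest of the gene held 109 and 284 (-0.49, -0.83 to -0.17). DDX3X, a helicase of translation initiation with 0 lactate and 6 ddH2O peaks, had 3 and 17 reads in its 1 tested window (-2.02, -4.77 to -0.57, and -1.31, -4.05 to 0.15, by library sums). DHX9, a nuclear helicase of double-stranded RNA, went the other way in its densest window, with 99 and 105 reads (0.67, 0.26 to 1.08, and 0.78 by library sums), though under 2-fold.

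The mitochondrial role rested on DHX30, a mitochondrial ribosome factor that also acts in the cytoplasm. Its densest exon window held 317 and 726 reads, with a ratio of -0.06 (-0.26 to 0.13) by MAnorm and -0.33 (-0.53 to -0.14) by library sums. A further 3 windows, of peaks between 0.26 and 0.29 of the length of the gene, held 19 and 67, 24 and 85, and 19 and 80 reads, with ratios of -1.26, -1.22 and -1.49. These 3 of the 4 tested windows were over 2-fold lower (75%, against 18.6% of all merged peaks) and overlap in a chain, so they share reads. By library sums only the last of them was (25%, against 8.77%).

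Of the RNA sensors only DDX58 had tested windows. Of its 7, 2 were over 2-fold lower by MAnorm (28.6%, against 18.6% of all merged peaks). Both were labelled 3′ UTR, with 11 and 51 reads (-1.71, -2.89 to -0.84) and 11 and 31 reads (-1.06). The first of these peaks lies at 0.82 of the length of the gene. An overlapping pair of intron windows had 20 and 15 reads each (0.73, -0.29 to 1.82), which passed 2-fold by library sums. By that scaling 28.6% of the 7 windows were higher and 14.3% lower, against 17.0% and 8.77% of all merged peaks. DDX60 and DDX60L, which are induced by interferon, had at most 4 reads in a window. The 8 genes of other or less settled role had 21 tested windows, with a median of -0.44. Of these 0 were higher and 5 lower (23.8%, against 18.6% of all merged peaks), and by library sums 0 and 0, against 17.0% and 8.77%. DDX1, of the tRNA ligase complex, had 49 and 118 reads (-0.57, -1.09 to -0.09, and -0.39, -0.92 to 0.09, by library sums).

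Over the 39 genes with a tested window, the densest window lay below 0 in 30, where 60.1% of all 8970 protein-coding genes had it below 0. By library sums it did so in 27 genes, against 4484 of the 8970. Its interval lay below 0 as a whole in 15 genes by MAnorm (26.2% of all genes) and in 13 by library sums (18.9%). It lay above 0 in DDX21, DHX9 and DHX33 by MAnorm (14.2% of all genes) and in DHX8 and DHX9 by library sums (17.4%), so that DHX9 alone did so under both scalings. The windows just past 2-fold lower were those of DDX27 and DHX32, each with 12 and 33 reads (-1.02), and the one just short of it was on DDX46 with 53 and 180 reads (-0.9999).

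Other RNA helicases and cofactors of the family were looked at in the same way. Of 18 RNA helicases under other names, 16 had a peak, with a median of -0.40 over 46 tested windows, 4 higher and 11 lower. By library sums the median was -0.08 with 10 higher and 5 lower, a turn that all merged peaks share. EIF4A1, the translation initiation helicase, had 575 and 1541 reads in 1 window (-0.13), and EIF4A3, of the exon junction complex, had 43 and 218 (-1.57). Of 18 G-patch proteins, which stimulate DHX helicases, 17 had a peak, with a median of -0.49 over 61 windows, 2 higher and 18 lower (-0.22, 10 and 14 by library sums). All 9 MIF4G and related cofactors of DDX helicases had one, with a median of -0.19 over 52 windows, 5 higher and 18 lower (0.10, 9 and 11 by library sums). These counts stand beside the 7.65% higher and 18.6% lower of all merged peaks by MAnorm, and the 17.0% and 8.77% by library sums.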

How the data were processed

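Per the labels, RNA was prepared with the SMART-Seq v4 Ultra Low Input kit. The submitters' processing notes name fastp 0.20.1, HISAT2 2.1.0, MACS2 2.2.7.1, bedtools 2.29.2, HOMER 4.11.1 and DiffBind and the build GRCh38. The authors called peaks in each IP against its own input and deposited a q-value and a fold, the ratio of the IP to its input, for each peak. They merged the lists and deposited for each merged peak a signal per IP library, the read density normalized with MAnorm. The M, A and P columns of the merged table hold the authors' own comparison and were not used. No per-sample column was left unused.

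Peaks were assigned to genes by the deposited symbol and biotype, and merged peaks by 1 base of overlap with a member's peak. Reads were recovered by taking a density to be reads plus 1 per kb of a 2000-base window, rescaled along a line (slope 0.17, intercept -0.20), and 99.998% of windows gave whole reads within 0.1. Recovery was tested on simulated data. Ratios were given at 20 reads or more and counted past 2-fold. With 1 library a group no test was made. Exact (Clopper-Pearson) 95% intervals cover counting error only. The alternatives were other q-values, folds, overlaps, read minimums, regions and library sums.

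The named genes were 12 chosen by role (DDX5 had no peak), the 5 with most reads in a window, the 5 highest and 5 lowest ratios and the 3 highest folds per list. Other windows of these genes, and further genes such as DDX1 and DDX58, were named after their values were seen. The members and lists were chosen with earlier results of these data known. Scripts ran in Python 3.11.15 with scipy 1.17.1, pandas 2.3.3, matplotlib 3.10.9 and numpy 2.4.6.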

Additional observations from a re-analysis of the deposited data

How the results depend on the processing

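No paired analysis was possible because there was 1 library of each kind, and for the same reason no library could be left out. The numbers of helicase genes in each list stayed within 1.5 times under the alternatives tried. An overlap of 50% of both peaks lowered the share of overlapping peaks to 51.4% (lactate) and 23.6% (ddH2O), and a q-value below 0.05 raised the lactate share to 82.5%. That q-value gave exon shares of 48.8% (lactate) and 53.7% (ddH2O), intron shares of 25% and 21.7%, a lactate 5′ UTR share of 0% and median folds of 4.70 and 4.85. A fold of at least 4 gave an exon share of 53.1% and an intron share of 22.1% in the ddH2O list and 0% for the 5′ UTR in the lactate list, and by bases the ddH2O intron share was 27.7%.

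Windows higher and lower by over 2-fold numbered 11 and 15 of 147 by library sums, 13 and 74 of 226 at 10 reads or more, 1 and 17 of 87 at 50 reads or more, and 28 and 140 of 354 with no minimum. At a fold over 4 there were 0 and 6, and at a fold over 1.5 there were 10 and 65. In exon and UTR windows 1 of 110 was higher, and without overlapping windows, an alternative chosen after seeing the data, 17 of 83 were lower, against 34 of 147. Leaving out windows of peaks past the end of their gene, also chosen after seeing the data, gave 6 and 33 of 145. The median log2 ratio was -0.24 by library sums and -0.67 with no minimum, and below 0 under every alternative tried. Genes with a higher window fell to 1 at 50 reads or more and in exon and UTR windows, and genes with a lower window to 11 at 50 reads or more. The cause was not tested. None of the windows named by rule changed direction past 2-fold.

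Depth limits the ratios, since 207 of 354 windows held under 20 reads. In 15 windows (4.24%, against 1.77% of all merged peaks), all on exons or UTRs, both libraries had 0 reads although a peak was called, among them the DDX10 exon peak with a fold of 16.0. These windows miss reads that the peak caller had, and the cause was not tested.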

Other observations

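Peaks were also listed on 7 noncoding genes named after DDX or DHX genes, 6 in the lactate and 14 in the ddH2O list. The processed pseudogene DDX50P1 had an exon peak with a fold over input of 14.6 with lactate and 20.2 with ddH2O (chr2:32201601-32202064), above every peak of DDX50 itself, whose highest folds were 7.13 and 7.14. Reads of a processed pseudogene and of its parent mRNA can be near-identical, so these values are uncertain. The lncRNA DDX11-AS1 had 3 lactate and 7 ddH2O peaks, while DDX11 had 2 and 1.

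An intron window of DDX59 at chr1:200655973-200656562, chosen after its values were seen, had 1 lactate and 17 ddH2O reads and so fell just under the minimum of 20 reads. Its log2 ratio was -3.11 (-9.41 to -1.35).

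Tested windows that came from both lists numbered 79, with a median log2 ratio of -0.33. Those from the ddH2O list alone numbered 59, with a median of -0.85, and those from the lactate list alone numbered 9, with a median of 0.49. The lists were called on the same IP libraries as the ratio, so this order is a description.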
